A study of Mus musculus with 10 samples.

Results

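The apolipoprotein L genes described here were 8 members of 1 mouse gene family, Apol6, Apol7a, Apol7e, Apol8, Apol9a, Apol9b, Apol10b and Apol11b. They were taken by name from a table of 22053 gene identifiers, as mouse relatives of APOL1, the human gene whose risk variants are linked to podocyte injury. All had an entry in the table, in which 12 genes carried an Apol number. RNA-seq had been run on kidney glomeruli of mice with the p.G799R missense change in Col4a3 (5 libraries, written G799R) and of mice with wild-type Col4a3 (5 libraries, written WT). The labels do not state strain, age, sex, zygosity, litter or how glomeruli were prepared. They also leave unsaid whether each library is a separate animal, so p-values measure the spread between libraries, which may be technical. Tauroursodeoxycholic acid, a bile acid named in the series title, appears in no library title, so no library labelled as treated is analysed here. Values are FPKM, which are fragments scaled for transcript length and library total, so levels can be compared between genes.

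Apolipoprotein L proteins are lipid-binding proteins that act mostly inside cells, on membranes. Human APOL1 also circulates on high-density lipoprotein, where it kills trypanosomes, and mice have no direct counterpart of it. In human cells, among them podocytes, interferons raise APOL1, and in the mouse Apol9a and Apol9b are known as interferon-induced genes. Interferons act through JAK kinases and STAT factors. A complex that holds STAT2 and IRF9 binds the interferon-stimulated response element.

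All 8 genes lie on chromosome 15 of the mouse build GRCm38, by the GENCODE M21 annotation, which may not be the authors' annotation. Together with the other 4 Apol genes in the table they occupy an interval of 712275 bases, from 77044729 to 77757003. Apol6 is at its one end (77044729 to 77057106, plus strand) and Apol8 at the other (77747798 to 77757003, minus strand). Between them lie Apol7a (77388219 to 77399110, minus), Apol9a (77403789 to 77411135, minus), Apol10b (77583819 to 77596125, minus), Apol11b (77633946 to 77643286, minus), Apol7e (77698857 to 77719285, plus) and Apol9b (77729039 to 77736382, plus). Apol6 overlaps Mb, the myoglobin gene on the opposite strand. Mb stood at 0 to 0.067 FPKM in G799R and 0 to 0.162 FPKM in WT libraries. Whether the authors' counting used strand is not stated, so reads of the overlap cannot be assigned to one of the genes.

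Promoter windows are shown for the members that carry an interferon response motif. Each window runs from 250 bases before to 50 bases after a gene's start, from RefSeq sequence on GRCm38.p6. Of the 8 members 7 had a window, and Apol6 had none. They were searched on both strands for the interferon-stimulated response element, taken as 2 copies of GAAA with 2 bases of any kind between them, or of TTTC on the other strand. Capitals mark the matched bases. The windows of Apol9a (chr15:77411031-77411330, minus strand) and Apol10b (chr15:77596076-77596375, minus strand) read as follows, 5′ to 3′.
Apol9a: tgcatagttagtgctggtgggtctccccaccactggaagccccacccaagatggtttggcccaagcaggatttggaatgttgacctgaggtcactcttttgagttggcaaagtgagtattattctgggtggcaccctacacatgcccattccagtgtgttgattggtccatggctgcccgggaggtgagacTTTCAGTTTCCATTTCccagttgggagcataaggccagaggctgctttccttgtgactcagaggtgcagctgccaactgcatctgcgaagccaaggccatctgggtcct
Apol10b: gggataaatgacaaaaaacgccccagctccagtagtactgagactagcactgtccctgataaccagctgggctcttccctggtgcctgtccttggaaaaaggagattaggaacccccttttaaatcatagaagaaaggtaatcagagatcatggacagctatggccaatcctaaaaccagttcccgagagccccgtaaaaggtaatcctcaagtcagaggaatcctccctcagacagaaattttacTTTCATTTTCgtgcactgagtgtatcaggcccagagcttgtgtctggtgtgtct

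The same motif stood in the windows of 5 of the 7 members, Apol7e, Apol9a, Apol9b, Apol10b and Apol11b, and there was no match in those of Apol7a and Apol8. It also stood in those of 3 of the other 4 Apol genes in the table, Apol10a, Apol11a and Apol7c. Counting any window of a gene, it was held by 3.99% of all 27025 genes with a window in RefSeq, by 11 of 23 genes (47.8%) of a list of interferon-induced antiviral genes and by 9 of 15 genes (60%) of a list of genes induced by interferon-gamma. Apol9a, Apol9b and Apol7e each held a pair of overlapping matches. The matched bases began 59, 37, 36, 50 and 4 bases before the start in the windows of Apol9a, Apol9b, Apol7e, Apol11b and Apol10b. The stretches around the matches of the other three members, with 15 bases on either side, are chr15:77729020-77729065 (plus) for Apol9b, chr15:77698838-77698883 (plus) for Apol7e and chr15:77643312-77643351 (minus) for Apol11b.
Apol9b: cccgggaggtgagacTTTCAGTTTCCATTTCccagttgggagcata
Apol7e: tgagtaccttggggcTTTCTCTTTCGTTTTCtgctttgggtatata
Apol11b: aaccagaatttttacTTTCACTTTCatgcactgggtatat

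The stretch of Apol9b has the same letters as that of Apol9a, and the 2 windows share a run of 278 bases. The windows of Apol11b and Apol11a share a run of 250 bases, so the matches in the family are not independent of each other. A match describes the letters of the window and shows no binding.

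Several members are near-copies of other genes, which limits how well their reads can be told apart. The longest coding transcripts of Apol9a (1530 bases) and Apol9b (1573 bases) were 98.4% identical over 1422 aligned bases. Of all windows of 100 bases along the Apol9a transcript, 41.1% also occurred in Apol9b. For Apol7e 58.4% of such windows occurred in another gene, mostly in Apol7b (57.4%). For Apol7a and Apol11b these shares were 3.75% and 4.12%, and for Apol6, Apol8 and Apol10b 0%. Single values of Apol9a, Apol9b and Apol7e are therefore uncertain, while Apol6, Apol8 and Apol10b shared no such window with another gene.

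FPKM values of low genes moved in steps of 1 fragment once multiplied by transcript length. The step gave about 14100000 to 16900000 fragments in G799R libraries and 16200000 to 19500000 fragments in WT libraries. At that step 86.6% to 90.5% of low single-transcript genes lay within 0.1 fragment of a whole number, for values of up to 10 fragments. The libraries carried podocyte markers but also tubule markers. The summed FPKM of 15 podocyte markers was 5016 to 6710 in G799R and 3034 to 3608 in WT. The 14 proximal tubule markers summed to 809 to 2322 FPKM in G799R and 6242 to 12150 FPKM in WT, where they exceeded the podocyte sum. The 12 distal tubule and collecting duct markers summed to 258 to 596 FPKM in G799R and 1432 to 2048 FPKM in WT. No marker of these lists was at 0 in every library. In bulk tissue, fewer cells of a type, less RNA per cell and a different share of tubule in the preparation cannot be told apart.

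The 2 near-identical genes Apol9a and Apol9b had the highest levels and the largest differences of log2(FPKM + 1) in the family, and Apol6 the largest ratio of means (24.5). Apol9a, which encodes a protein reported to bind phosphatidylethanolamine, stood at 1.42, 1.41, 7.96, 4.19 and 0.401 FPKM in G799R libraries 1 to 5, against 0.04, 0, 0.121, 0.25 and 0.852 FPKM in WT libraries 1 to 5. Library 3 and then library 4 were highest in G799R, and G799R library 5 lay below WT library 5, so the groups overlapped. The mean was 3.08 ± 3.07 FPKM in G799R and 0.253 ± 0.348 FPKM in WT (SD, n = 5 each). The log2 difference of FPKM + 1 was 1.43 ± 0.42 (SE), with an adjusted p of 0.0132 by limma. This scale understates changes of low genes, and with 0.1 FPKM added in place of 1 the log2 differences of Apol9a, Apol9b and Apol10b were 3.05, 2.96 and 2.08 (limma adjusted p = 0.0057, 0.0124 and 0.0089).

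Apol9b, the near-copy of Apol9a, stood at 1.76, 1.32, 9.89, 5.58 and 0.089 FPKM in G799R libraries 1 to 5, against 0.16, 0.077, 0.081, 0.179 and 0.324 FPKM in WT libraries 1 to 5. G799R library 5 lay within the WT range, and the other 4 G799R libraries lay above it. The mean was 3.73 ± 4.01 FPKM in G799R and 0.164 ± 0.10 FPKM in WT, and the log2 difference was 1.58 ± 0.50 (SE; limma adjusted p = 0.0175). The SD of both genes in G799R was about as large as the mean. Estimated fragments summed to 342.5 in G799R and 36.4 in WT for Apol9a, and to 425.9 in G799R and 23.6 in WT for Apol9b.

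Apol10b, a member with no near-copy, was 7.85-fold higher in G799R by the ratio of means. It stood at 0.255, 1.33, 2.63, 1.65 and 0.376 FPKM in G799R libraries 1 to 5, against 0.184, 0.023, 0.292, 0.141 and 0.155 FPKM in WT libraries 1 to 5. Libraries 2, 3, 4 and 5 of G799R lay above every WT library, and library 1 lay within their range. These values stand for an estimated 10 to 86 fragments in a G799R library and 1 to 11 in a WT library. The mean was 1.25 ± 0.977 FPKM in G799R and 0.159 ± 0.0964 FPKM in WT, and the log2 difference was 0.85 ± 0.26 (SE; limma adjusted p = 0.0157).

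These 3 genes were the members with a mean of at least 0.5 FPKM, the level from which genes were tested. Each passed through its G799R level, since its WT mean was under 0.5 FPKM. All 3 were called higher, where 59.8% of the 13117 tested genes were called in either direction, 40.5% higher and 19.3% lower in G799R, and no member was called lower at an adjusted p under 0.05 or at an unadjusted p under 0.05 by limma. The count says little about the members, because a gene that reaches the level only through the group where it is high has to differ.

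Apol6, whose human relative can trigger cell death when overproduced, lay just under that level, at a mean of 0.491 FPKM over all libraries. In the FPKM as deposited it was the only one of the 8 members whose groups did not overlap. Apol6 stood at 0.144, 1.10, 1.86, 1.08 and 0.535 FPKM in G799R libraries 1 to 5, against 0, 0, 0.027, 0.024 and 0.142 FPKM in WT libraries 1 to 5. Every G799R library was above every WT library, which also held for 20% of all genes above 0 in a library, but G799R library 1 and WT library 5 were nearly level, at 0.144 FPKM in G799R and 0.142 FPKM in WT. The order of these 2 libraries reverses under both scalings described below. Median-of-ratios scaling divides G799R library 1 by 1.09 and WT library 5 by 0.941. Glomerular marker scaling multiplies them by 0.84 and 1.25. The estimated fragments of Apol6 were 158.7 in G799R and 8.4 in WT over all libraries. Of these, 6.4 were in WT library 5 and 5.6 in G799R library 1. With no filter on low values the log2 difference of Apol6 was 0.84 ± 0.20 (SE; limma adjusted p = 0.0070).

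The 4 remaining members were near or at 0. Apol7e averaged 0.133 ± 0.0958 FPKM in G799R and 0.125 ± 0.0784 FPKM in WT, an estimated 23.0 fragments over all G799R libraries and 25.0 over all WT libraries. Apol8 averaged 0.0714 ± 0.06 FPKM in G799R and 0.0614 ± 0.0697 FPKM in WT. Apol11b was above 0 in libraries 2, 3 and 5 of G799R, at 0.068, 0.034 and 0.182 FPKM, and in WT library 4, at 0.106 FPKM. Groups overlapped for these genes. With no filter on low values their log2 differences were 0.0085 ± 0.065, 0.014 ± 0.051 and 0.048 ± 0.049 (SE), with limma adjusted p-values of 0.93, 0.84 and 0.47, so a difference was not detectable at this depth. Apol7a was listed at 0 in all 10 libraries.

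**Figure D1:**
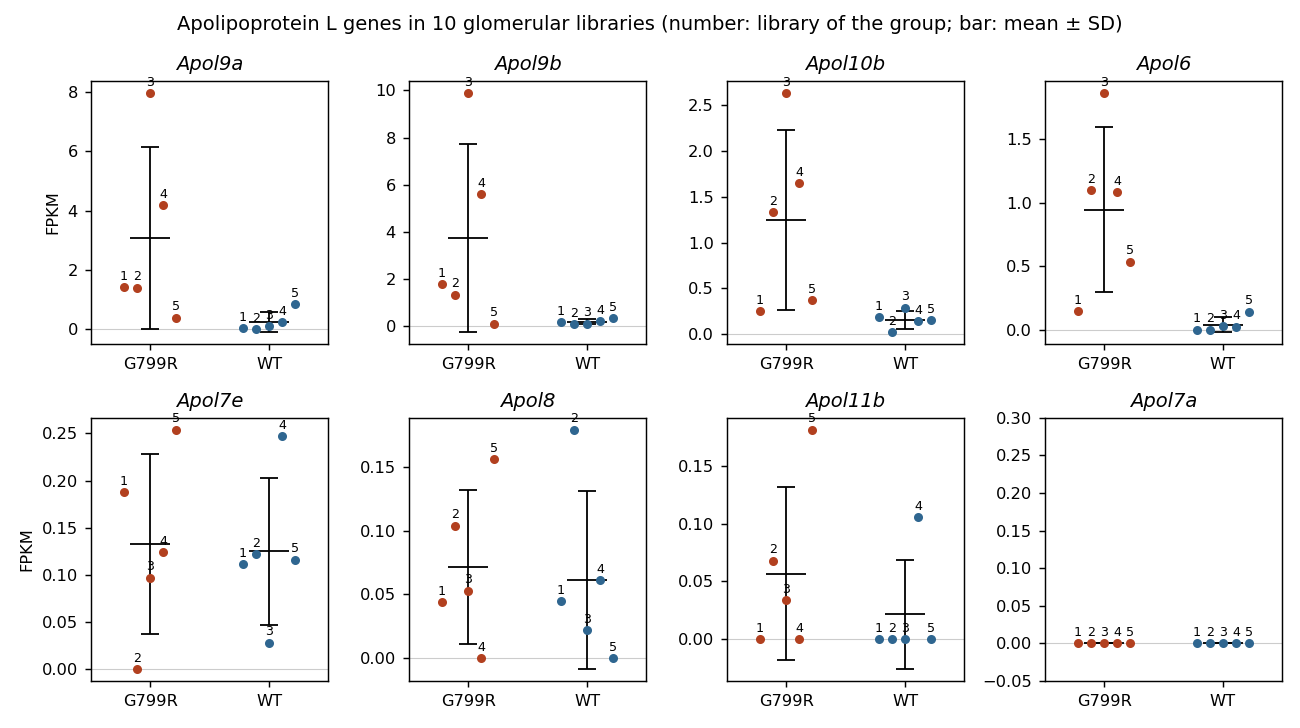
FPKM of the 8 genes (y axis, a separate linear scale in each panel) in the 5 G799R libraries (left) and the 5 WT libraries (right) of each panel. Points are libraries with their number, and bars show the mean ± SD; Apol9a, Apol9b, Apol10b and Apol6 are highest in G799R library 3, Apol7e, Apol8 and Apol11b overlap between groups, and Apol7a is at 0.

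Without the filter, 7 of the 8 members could be fitted and 4 were called higher, where 30.1% of 17649 genes were called higher. The other 4 Apol genes in the table are no members. Apol7b and Apol10a were listed at 0 in every library, and Apol11a was above 0 in G799R library 3 alone, at 0.076 FPKM. Apol7c, known in mouse dendritic cells, stood at 0.288, 1.20, 0.103, 0.199 and 0.212 FPKM in G799R libraries 1 to 5, against 0.267, 0.078, 0.06, 0 and 0.025 FPKM in WT libraries 1 to 5. Its highest value was in G799R library 2, unlike Apol9a, Apol9b, Apol10b and Apol6, and its log2 difference of 0.32 ± 0.17 (SE) was not called with no filter (limma adjusted p = 0.15).

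The FPKM of the 8 genes summed to 3.81, 5.33, 22.5, 12.6 and 1.99 in G799R libraries 1 to 5, against 0.54, 0.401, 0.571, 1.008 and 1.59 in WT libraries 1 to 5. As deposited, every G799R sum was above every WT sum, and the sums varied widely within G799R. G799R library 5 and WT library 5 were close, at 1.99 and 1.59 FPKM. Apol7e, Apol8 and Apol11b, with no detectable difference, gave 0.254, 0.156 and 0.182 FPKM of the sum in G799R library 5. Glomerular marker scaling, described below, multiplies G799R library 5 by 0.811 and WT library 5 by 1.25. That puts this WT sum above this G799R sum. Of single genes above 0 in a library, 20% had every G799R library above every WT library. Apol9a and Apol9b together made up 83.4%, 51.2%, 79.3%, 77.4% and 24.6% of the sum in G799R libraries 1 to 5, and 19.2% to 74.0% in WT libraries. Apol6 made up 3.78% to 26.8% in G799R and 0% to 8.94% in WT.

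**Figure D2:**
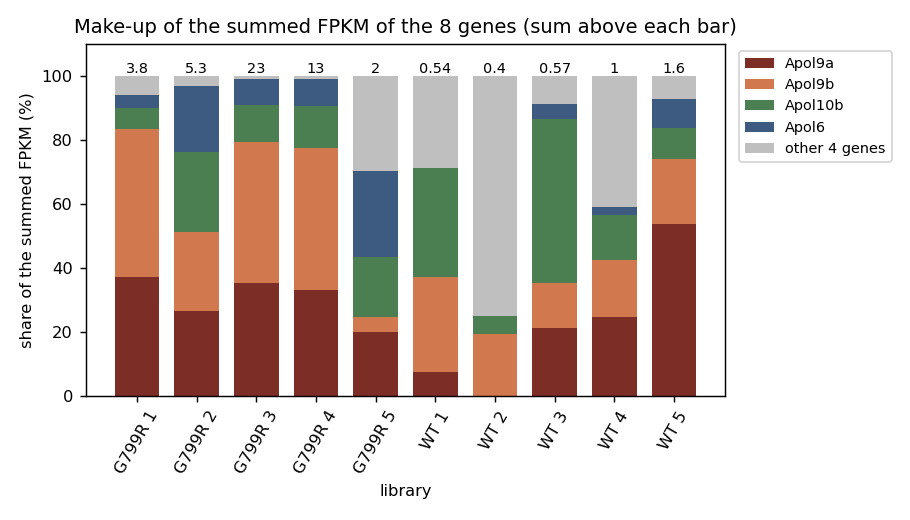
Share of the summed FPKM of the 8 genes (y axis, percent) held by Apol9a, Apol9b, Apol10b, Apol6 and the other 4 genes in each library, G799R left of WT, with the sum in FPKM above each bar. Apol9a and Apol9b hold 51.2% to 83.4% of the sum in G799R libraries 1 to 4 and 24.6% in G799R library 5.

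Members were also compared with each other within a library. For the 3 pairs of tested members, log2 ratios were formed with 0.1 FPKM added and compared by an exact two-sided permutation test, which cannot go below p = 0.0079 here. Apol9a over Apol9b averaged 0.098 ± 0.75 in G799R and 0.013 ± 0.87 in WT (SD, n = 5 each; exact permutation p = 0.87, adjusted p = 0.87). Apol9a over Apol10b averaged 1.02 ± 0.91 in G799R and 0.059 ± 1.19 in WT (exact permutation p = 0.18, adjusted p = 0.46). Apol9b over Apol10b averaged 0.92 ± 1.55 in G799R and 0.046 ± 0.73 in WT (exact permutation p = 0.31, adjusted p = 0.46). The differences between groups were 0.085, 0.96 and 0.88, all within the spread between libraries, which does not show that the members moved alike. They depend on the added constant, and that of Apol9a over Apol9b was 0.73 with 0.01 FPKM added and −0.15 with 1 FPKM added.

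The order of the G799R libraries differed between members. Apol9a and Apol9b were highest in library 3, then 4, 1, 2 and 5, Apol10b in library 3, then 4, 2, 5 and 1, and Apol6 in library 3, then 2, 4, 5 and 1. Libraries 1 and 2, chosen after their values were seen, show this. Apol9a was at 1.42 and 1.41 FPKM in these, whereas Apol10b was at 0.255 and 1.33 FPKM and Apol6 at 0.144 and 1.10 FPKM. In estimated fragments, Apol10b had 10 and 44, and Apol6 had 5.6 and 36.1.

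Scores, which are the mean log2(FPKM + 1) of a list in a library, were set beside these values. The score of 32 interferon-induced antiviral genes was 4.61, 4.66, 6.49, 6.04 and 3.48 in G799R libraries 1 to 5, against 2.34 to 3.25 in WT. That of 21 genes induced by interferon-gamma was 4.004, 5.13, 5.72, 5.19 and 4.16 in G799R libraries 1 to 5, against 2.38 to 2.84 in WT. Libraries 1 and 2 of G799R, chosen after their values were seen, thus had close antiviral scores, and the interferon-gamma score was lower in library 1 than in library 2. Over G799R libraries the interferon-gamma score had the order 3, 4, 2, 5 and 1, as did Apol10b. The order of the antiviral score, 3, 4, 2, 1 and 5, was that of no member. These orders rest in part on small gaps. Apol10b had an estimated 14 and 10 fragments in G799R libraries 5 and 1. Apol9a was at 1.42 and 1.41 FPKM in G799R libraries 1 and 2. In WT, library 5 had the highest antiviral score (3.25) and the highest Apol6, Apol9a and Apol9b. Apol10b was highest in WT library 3 (0.292 FPKM), where the interferon-gamma score was 2.54, against its WT maximum of 2.84 in library 1. These are descriptions of 5 libraries a group, with no test. Of the interferon genes themselves, only Ifng, Ifnb1 and Ifna4 were looked at. Ifng stood at 0.155 FPKM in G799R library 5 and Ifnb1 at 0.091 FPKM in G799R library 4. Both were listed at 0 in the other libraries, and Ifna4 in all.

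**Figure D3:**
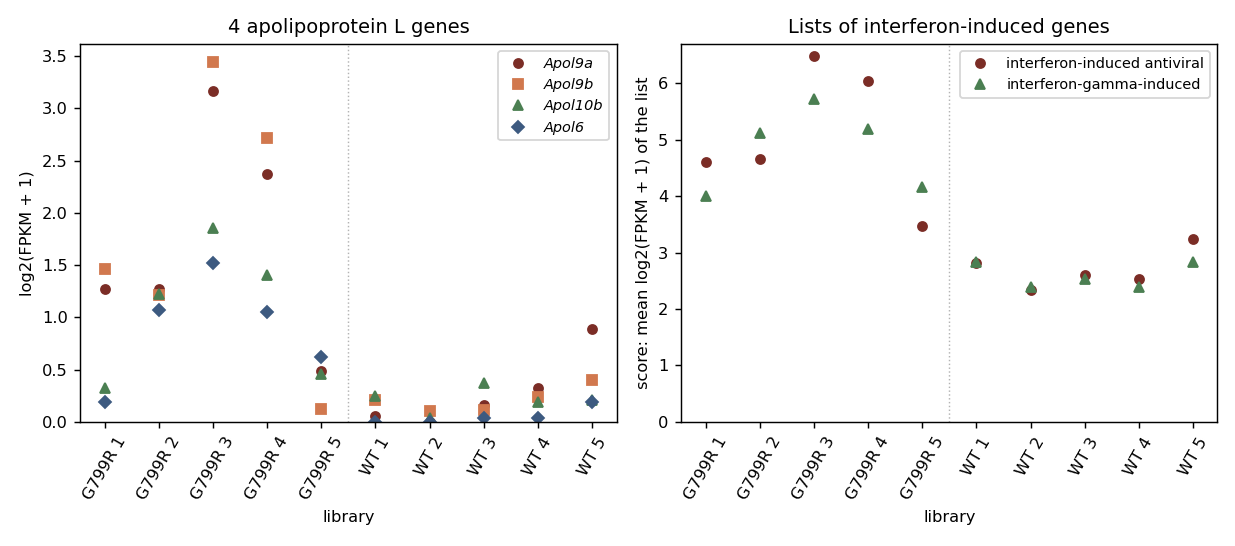
Left, log2(FPKM + 1) of Apol9a, Apol9b, Apol10b and Apol6 (y axis) in each library (x axis, G799R left of WT). Right, the mean log2(FPKM + 1) of the interferon-induced antiviral list and of the interferon-gamma-induced list. G799R library 3 is highest throughout, and a link between a gene and a list was not tested.

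The tested genes most like Apol9a were found by the root mean square difference between profiles of log2(FPKM + 1) over the 10 libraries, each centred on its WT mean. For Apol9a they were Eif2ak2, the antiviral kinase PKR (0.22), Trim30a (0.24) and Parp9 (0.25), where the median over all tested genes was 1.16. Eif2ak2 averaged 29.4 ± 18.6 FPKM in G799R and 8.82 ± 1.74 FPKM in WT. For Apol9b they were Hap1, a huntingtin partner (0.23), Phf11a (0.27) and Trim30a (0.28), with a median of 1.32 over all tested genes. The difference between Apol9a and Apol9b themselves was 0.27, and that between Apol9a and Apol10b was 0.60. This likeness holds only on a scale that understates changes of low genes. By the ratio of means Apol9a was 12.2-fold higher, against 3.33-fold for Eif2ak2, 3.71-fold for Trim30a and 3.49-fold for Parp9. Apol9b was 22.7-fold higher, against 5.88-fold for Hap1 and 18.3-fold for Phf11a. The likeness was not computed with another added constant.

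Interferon-induced genes were mostly higher in G799R. Of the 32 antiviral genes 31 were called higher and 1 was not called, with a median log2 difference of 2.28, where the median of all tested genes was 0.17. Xaf1, which promotes cell death, averaged 140 ± 97.1 FPKM in G799R and 12.9 ± 4.07 FPKM in WT, and Rtp4, a chaperone of receptors, 76.6 ± 47.9 FPKM in G799R and 8.38 ± 3.84 FPKM in WT. Ifi27l2a and Helz2 were 40.7-fold and 2.82-fold higher. Of 21 genes induced by interferon-gamma 19 were called higher and 2 were not called, with a median of 2.42. Tap1 and Tap2, which carry peptides to MHC class I, were 8.24-fold and 2.87-fold higher. The immunoproteasome genes Psmb8 and Psmb9 were higher by 6.14 and 7.19 times. The lists were chosen with these results known, so the counts are no independent support.

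Of 16 receptors, kinases and factors of the pathway 15 were called higher and 1 was not called, with a median of 0.66. Under the glomerular marker scaling described below 7 were called higher and 3 lower. Stat2 averaged 56.5 ± 31.3 FPKM in G799R and 11.3 ± 1.65 FPKM in WT. Irf9, whose product binds the response element with that of Stat2, averaged 60.3 ± 22.3 FPKM in G799R and 15.8 ± 3.87 FPKM in WT, and Irf1, a factor induced by interferon-gamma, 70.7 ± 20.5 FPKM in G799R and 21.5 ± 2.34 FPKM in WT. Irf7, which amplifies type I interferon, was 44.3-fold higher. Ifnar2, a receptor chain, and the kinase gene Jak1 were 1.67-fold and 1.43-fold higher as deposited.

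Apolipoproteins of other families were mostly lower. Of 13 tested genes of apolipoproteins and high-density lipoprotein 8 were called lower, 1 higher and 4 were not called, with a median of −0.61. Apob, the main protein of low-density lipoprotein, averaged 0.448 ± 0.149 FPKM in G799R and 4.76 ± 0.960 FPKM in WT, and Apom, a carrier of sphingosine-1-phosphate, 4.68 ± 0.581 FPKM in G799R and 39.3 ± 11.4 FPKM in WT. Apoh, a plasma glycoprotein gene, averaged 1.12 ± 0.328 FPKM in G799R and 8.09 ± 2.29 FPKM in WT. Apoo, which encodes a mitochondrial inner membrane protein, averaged 16.3 ± 1.97 FPKM in G799R and 35.6 ± 6.98 FPKM in WT. The 14 proximal tubule markers were all called lower in the same libraries, and their part in these differences was not tested.

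Genes around the family on chromosome 15 had no common direction. Of 11 tested neighbours 6 were called higher, 3 lower and 2 were not called, where 40.5% of all tested genes were called higher and 19.3% lower. Myh9, which encodes the podocyte myosin chain next to Apol8, averaged 233 ± 10.4 FPKM in G799R and 137 ± 16.5 FPKM in WT, and Rbfox2, a splicing factor gene inside the interval, 29.9 ± 2.85 FPKM in G799R and 22.3 ± 2.54 FPKM in WT. Eif3d, Csf2rb and Csf2rb2 were 1.23-fold, 2.33-fold and 1.85-fold higher, and Ncf4, a part of the phagocyte oxidase, 4.45-fold higher. Txn2, the mitochondrial thioredoxin, averaged 42.0 ± 4.42 FPKM in G799R and 64.3 ± 7.26 FPKM in WT, and Foxred2 and Rasd2 were also called lower.

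Macrophages and dendritic cells can be present in glomeruli. Of their 12 tested markers 7 were called higher and 5 were not called, where 40.5% of all tested genes were called higher. The 14 markers in the table summed to 146 to 230 FPKM in G799R and 53.2 to 133 FPKM in WT, and none was at 0 in every library. Their score over G799R libraries 1 to 5 was 3.53, 3.67, 3.26, 2.81 and 3.07. The 4 tested lymphocyte genes had 1 called higher and 1 lower. Under glomerular marker scaling 2 of the 12 macrophage and dendritic markers were called higher. The part of these cells in the Apol values was not tested.

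Glomerular markers were higher in G799R as a whole, so the differences were also taken with the mean of podocyte, endothelial and mesangial markers set equal in every library. Under this scaling the median of all tested genes was −0.41, and of 13158 genes 67.9% were called, 4.16% higher and 63.7% lower. Apol9a, Apol9b and Apol10b were called higher, by log2 differences of 1.15, 1.32 and 0.64 (limma adjusted p = 0.0185, 0.0173 and 0.0241). With no filter added, Apol6 was also called, at 0.68 ± 0.17 (SE; limma adjusted p = 0.0072), where 3.39% of genes were called higher, while Apol7e and Apol8 were at −0.076 and −0.029 and not called. Of the antiviral list 28 genes were called higher, of the interferon-gamma list 18, and of the other apolipoproteins 11 were called lower. Eif2ak2 was no longer called, at 0.78 (limma adjusted p = 0.065), and of the neighbours Ncf4 alone was called higher, while Eif3d, Txn2, Foxred2, Rasd2, Ift27 and Pvalb were called lower. Median-of-ratios scaling, under which 23.3% of genes were called higher and 25.5% lower, left Apol9a, Apol9b and Apol10b called higher.

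G799R libraries 3 and 4 carried much of the size of the differences. Without these 2 libraries the ratio of means was 4.26 for Apol9a, 6.43 for Apol9b, 4.12 for Apol10b and 15.4 for Apol6, against 12.2, 22.7, 7.85 and 24.5 with all libraries. With the filter, Apol9a alone passed and was called, where 36.9% of genes were called higher. With no filter, Apol6 (0.57, limma adjusted p = 0.0250) and Apol9a (0.72, adjusted p = 0.0469) were still called, where 27% of 17492 genes were called higher. Apol9b (0.72, adjusted p = 0.061) and Apol10b (0.46, adjusted p = 0.081) were not. The ratio of Apol9a was 7.35 without G799R library 3 and 29.95 without WT library 5, that of Apol9b 13.3 without G799R library 3, and that of Apol6 74.0 without WT library 5, so folds against the few WT fragments are loose.

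**Figure D4:**
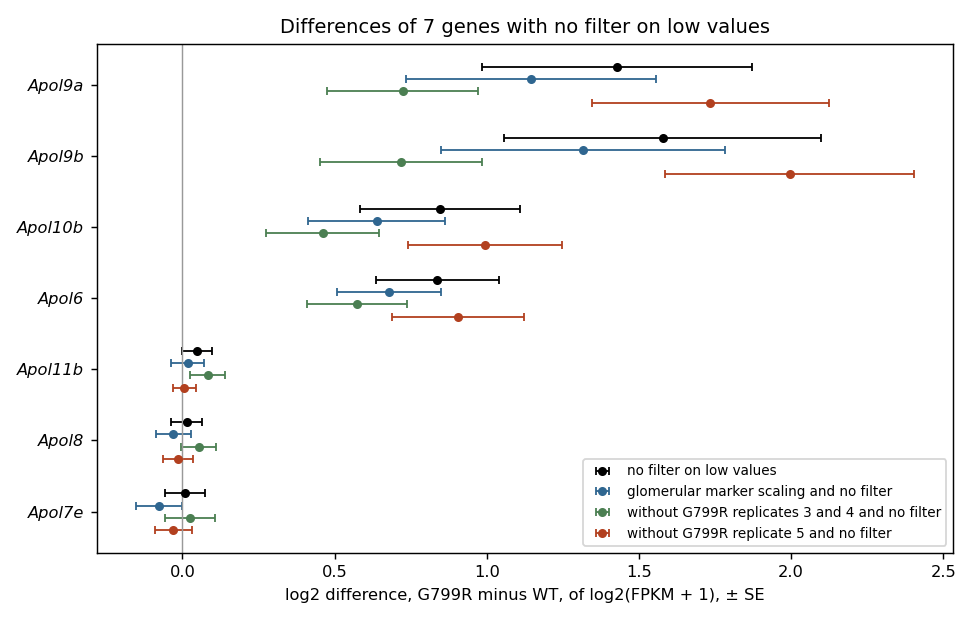
Log2 differences, G799R minus WT, of log2(FPKM + 1) ± SE (x axis) for 7 genes (y axis) with no filter on low values, under glomerular marker scaling, without G799R libraries 3 and 4, and without G799R library 5. Apol9a, Apol9b, Apol10b and Apol6 are above 0 at each setting, smallest without libraries 3 and 4, and Apol11b, Apol8 and Apol7e lie between −0.076 and 0.083.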

How the data were processed

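The authors deposited 1 table of FPKM values for 10 libraries, with 1 column per library and 0 columns of other samples. The submitters' processing notes name HISAT2, RSEM, StringTie 1.3.1, Bowtie2 2.2.8 and fastp 0.18.0 with no role or order, and per the labels' protocols libraries were made from enriched mRNA with a NEBNext Ultra kit. Build, annotation and strandedness are not given in these sources. Symbols were found for 21963 identifiers.

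FPKM was used as log2(FPKM + 1), which understates changes of low genes. limma-trend (R 4.3.3, limma 3.58.1) was run two-sided on genes whose mean reached 0.5 FPKM, with Benjamini-Hochberg adjustment over all tested genes and a threshold of 0.05. Depth was estimated from the steps of FPKM times GENCODE transcript length in single-transcript genes, and fragments of a gene from its longest coding transcript, so both are estimates. The depth estimate and the limma fit were tested on simulated data, and the conversion to fragments of a gene was not. The members, gene lists and marker lists were chosen with earlier results of these data known. Named genes were all members, the 4 smallest p-values of each pathway list, Stat2, Irf1, Irf7 and Irf9, called neighbours and the 3 genes most like a member called with a log2 difference of at least 1. A further gene taken by this rule is not reported here. Alternatives were pseudocounts, filters, scalings, limma settings, a replicate block and leaving out libraries. Combined settings with no filter were added after seeing the data.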

Additional observations from a re-analysis of the deposited data

Results flagged for a closer look

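Within the 14 groups of 5 libraries in which a member varied, 2 had a library far from the others by Dixon's test, where chance gives about 1 in 20. Apol6 stood at 0.142 FPKM in WT library 5, with the gap to the next library taking 0.81 of the group's range. Apol11b stood at 0.106 FPKM in WT library 4, the single WT library above 0. With the other WT libraries at 0, any value above 0 would stand apart in this way, so the rate of 1 in 20 does not apply to this gene, at an estimated 4.4 fragments.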

How the results depend on the processing

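Of the members, 3 were called higher and 0 lower by limma (0 lower at an unadjusted p under 0.05 at any setting), where 40.5% of 13117 tested genes were called higher. Each of the 3 passed the filter only through its G799R level, so the counts of members here say little about them. No member passed a filter of 2 FPKM, so 0 were called there (0 at an unadjusted p under 0.05). Without G799R libraries 3 and 4, 1 passed the filter and was called, where 36.9% of genes were called higher. Leaving out 1 library gave 2 to 4 called members, as Apol10b and Apol6 crossed the filter, and 6990 to 8169 called genes of the 13099 to 13133 tested. The log2 differences of Apol9a, Apol9b and Apol10b stayed called at every other planned setting that tested them, but their size depends on the pseudocount: with 0.1 they were 3.05, 2.96 and 2.08, against 1.43, 1.58 and 0.85 with 1, which turns round the order of Apol9a and Apol9b. With no filter, Apol7e turned to −0.076 under glomerular marker scaling and −0.029 without G799R library 5, and Apol8 to −0.029 and −0.014; neither was called. The difference between groups, G799R minus WT, in the log2 ratio of Apol9a over Apol9b was 0.085. It turned to −0.15 with a pseudocount of 1 and was 0.73 with one of 0.01. With 1 library left out it ranged from −0.24 to 0.37. The same difference ranged from 0.69 to 1.42 for Apol9a over Apol10b and from 0.51 to 1.44 for Apol9b over Apol10b. The cause was not tested. The summed FPKM of the members in G799R averaged 9.26, and 5.94 to 11.1 with 1 library left out. With the replicate number as a block 7388 genes were called, against 7845 without, and the 3 members stayed called. Same-numbered libraries correlated at −0.0846 to 0.0484 over genes, and 0 of 10 libraries correlated best with their own number. This check covers the replicate numbers of the labels only, so it cannot show whether libraries shared a litter, day or batch. Among all tested genes, 5308 higher and 2537 lower calls became 3058 and 3351 under median-of-ratios scaling and 547 and 8388 under glomerular marker scaling. Depth limits the 4 lowest members, at an estimated 25.0 fragments a group at most.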
